A study of Mus musculus with 10 samples.

Results

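The growth hormone and STAT5 axis was followed across livers of TAK1 KO and WT mice through 10 genes: the receptor gene Ghr, the transcription factor genes Stat5a and Stat5b, the inhibitor genes Socs1, Socs2, Socs3 and Cish, and the hepatic targets Igf1, Igfals and Egfr. The genes were chosen by name, and every probe that carries one of these names on the array was taken, which gave 24 of 41174 non-control probes and 10 of 27962 gene names. The study hybridised liver total RNA of 1-year-old TAK1 KO mice and of WT mice of the same age, both on the C57BL/6 strain, with 5 arrays of each genotype. TAK1 is here the nuclear orphan receptor also called TR4, whose gene is Nr2c2. The labels give neither the sex of the mice, nor a treatment or diet, nor the deleted piece of the gene, nor whether the arrays come from different mice. The p-values therefore reflect only how these samples vary, which may in part be technical.

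Each array was labelled with Cy3 alone, and 51.0% to 62.4% of its probes were well above background. Signals are given as scaled signals, the spot's processed signal divided by the 75th percentile of its own array. Pearson correlations between arrays of a genotype were 0.965 to 0.988 among KO and 0.988 to 0.994 among WT, and KO2 and KO4 made the lowest pair. Slide and genotype overlapped on slide 2 only, which held KO1, KO2, KO3 and WT5. Slide 1 held WT1 to WT4, KO5 was alone on slide 3 and KO4 alone on slide 4. KO4 was also the only array scanned on a different day, so its sample, slide and scan day cannot be told apart. A probe at the Nr2c2 locus for the cDNA AK039370 (mm7 chr6:92237812-92237871, minus strand) was above background on 0 of 5 KO and 5 of 5 WT arrays. It was at least 5.41-fold lower in KO, with limma adjusted p = 0.000213. It was tested only because of its WT readings, and that p-value rests on KO readings not well above background. The probes named Nr2c2, on the plus strand, were not lower in KO, with differences of 0.44 ± 0.11 and 0.36 ± 0.13 on the log2 scale. The first was called higher in KO by limma over all probes (adjusted p = 0.0428), and the other was not called (adjusted p = 0.144). The sources used here do not say whether they lie in the deleted piece.

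Growth hormone binds its receptor on hepatocytes and activates the kinase JAK2, which phosphorylates STAT5A and STAT5B. The STAT5 proteins then enter the nucleus and switch on Igf1, Igfals and the genes of their own inhibitors, CIS and the SOCS proteins. The hormone is secreted in pulses that differ between male and female rodents, and STAT5B carries that difference to many sex-biased liver genes.

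STAT5 binds DNA at the palindrome TTCNNNGAA, which reads the same on both strands. RefSeq promoter windows of 300 bases (GRCm38.p6), running 250 bases before to 50 after each annotated start, matched 9 of the 10 genes, all but Socs2. The palindrome was present in 4 of their 14 windows, at 3 genes (Cish, Igfals and Socs3), and in 8.30% of all 32851 windows. The stretches below run 200 bases before to 30 after the start, 5′ to 3′ on the gene's strand, and are shown because each holds the palindrome. Capitals mark the palindrome.
Cish, chr9:107296459-107296688, plus strand: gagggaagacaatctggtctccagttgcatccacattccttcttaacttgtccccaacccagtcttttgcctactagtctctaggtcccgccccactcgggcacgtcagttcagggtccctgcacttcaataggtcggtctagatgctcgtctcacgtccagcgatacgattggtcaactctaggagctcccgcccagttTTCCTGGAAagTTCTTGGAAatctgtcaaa
Socs3, chr11:117969337-117969566, minus strand: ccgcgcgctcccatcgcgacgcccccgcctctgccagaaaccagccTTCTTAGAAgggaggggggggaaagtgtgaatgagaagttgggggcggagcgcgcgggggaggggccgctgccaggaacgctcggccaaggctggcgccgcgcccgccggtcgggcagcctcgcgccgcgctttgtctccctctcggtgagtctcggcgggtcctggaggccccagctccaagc
Igfals, chr17:24878031-24878260, plus strand: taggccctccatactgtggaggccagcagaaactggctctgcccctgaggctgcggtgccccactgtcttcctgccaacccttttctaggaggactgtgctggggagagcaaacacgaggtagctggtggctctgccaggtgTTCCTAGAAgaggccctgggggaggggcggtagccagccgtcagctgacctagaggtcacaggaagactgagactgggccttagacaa

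Cish carried 2 copies, beginning at bases 1 and 12 of the annotated transcript, and 0.457% of all windows held 2 or more. Socs3 carried 1 copy beginning 154 bases before its start, and Igfals 1 copy beginning 58 bases before. A further Igfals window held a copy 236 bases before another annotated start, outside the printed stretch. These matches describe letters and were not compared with binding data.

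Socs2 and Egfr were higher in KO livers than in WT livers, and none of the 10 genes was called lower. Socs2, which encodes an inhibitor that acts on the growth hormone receptor, was 4.61-fold higher, and Egfr, the epidermal growth factor receptor gene, 2.14-fold higher. The genes of the receptor, STAT5B, IGF-1 and the acid-labile subunit differed by 0.15 or less on the log2 scale. The remaining SOCS-family genes lay higher on some KO arrays and not on others, and their tests did not pass.

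Of the 10 genes, 2 were called higher and 0 lower by limma with Benjamini-Hochberg adjustment over 15809 genes at 0.05. Over all genes tested, 2.44% were called higher and 3.48% lower (5.91% in either direction), or 385 and 550 genes, against 314 and 156 without scaling between arrays. At an unadjusted p under 0.05, 3 of the 10 were higher and 1 was lower, against 11.6% and 12.1% of all genes. The groups did not overlap for 2 of the 10, both with every KO array above every WT array, which held for 4.19% of all genes, and 5.43% of all genes had every KO array below every WT array. The differences were positive for 8 genes and negative for 2, with a median of 0.35 against 0.01 over all genes. KO arrays had the larger SD for 9 of the 10 genes, as for 78.5% of all genes. The bulk RNA was not separated by cell type, so fewer cells of a type and less RNA per cell cannot be told apart.

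**Figure D1:**
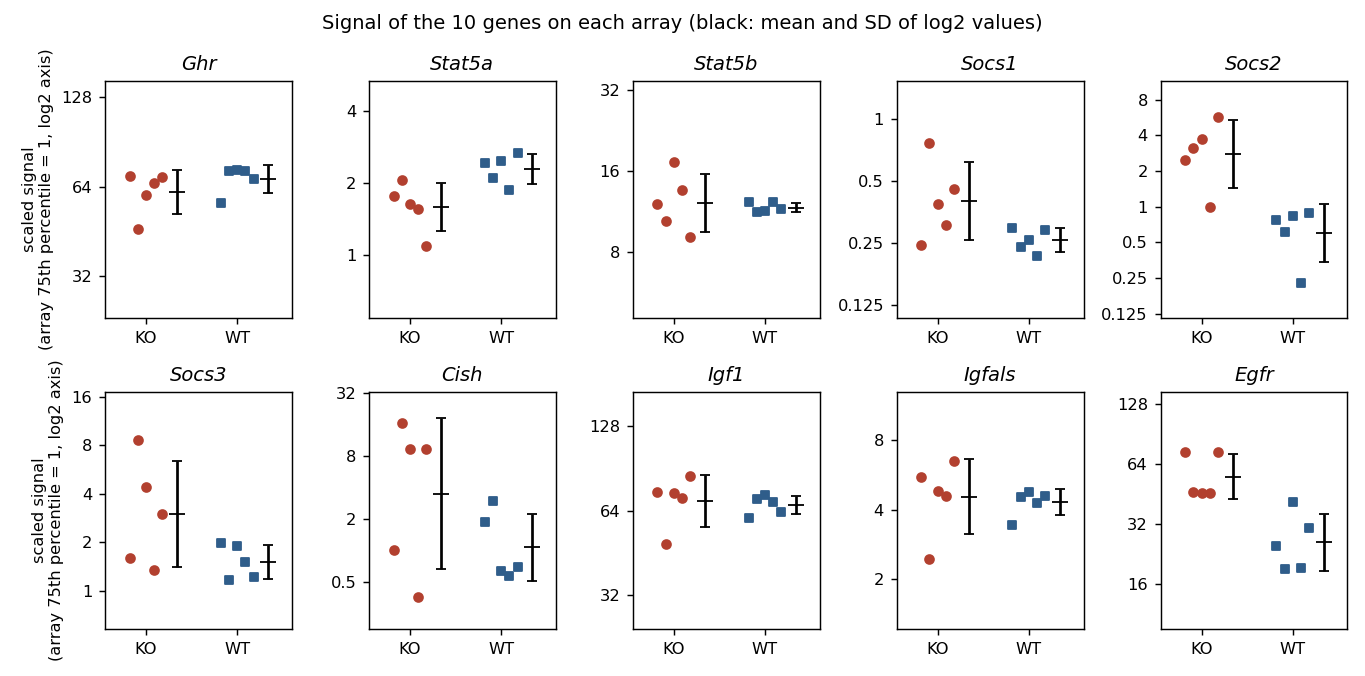
Scaled signal of the 10 genes on each array (points; log2 axis, array 75th percentile = 1), KO left and WT right, with the mean and SD of the log2 values as black bars (n = 5 each). Only the Socs2 and Egfr panels have every KO point above every WT point, and the Cish panel has KO points both above and below all WT points.

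Ghr, the gene of the growth hormone receptor, had scaled signals of 69.5, 46.2, 59.9, 66.1 and 68.8 on arrays KO1 to KO5, against 56.3, 72.3, 72.6, 72.5 and 68.1 on WT1 to WT5. The ranges overlapped, KO2 being the lowest KO array and WT1 the lowest WT array. The difference was -0.15 ± 0.13 (KO minus WT, log2, SE, n = 5 each), with a 95% interval of -0.43 to 0.13, limma adjusted p = 0.518 and an exact two-sided permutation p = 0.29. These values come from the first of the probes below, and the second crosses an intron, since its 60 bases span 7453 genomic bases. They are printed to show which pieces of the transcript were read, on the minus strand of chromosome 15 in mm7.
Ghr A_52_P680935, chr15:3153846-3153905: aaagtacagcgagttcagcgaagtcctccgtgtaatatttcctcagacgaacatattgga
Ghr A_52_P680941, chr15:3159367-3166819: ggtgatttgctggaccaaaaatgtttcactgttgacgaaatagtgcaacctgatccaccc

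The second probe gave -0.16 ± 0.16, and a further probe for the same RefSeq transcript (A_51_P499854) gave -0.23 ± 0.11 with limma adjusted p = 0.249 over all probes. Probes for the cDNAs AK034547 and AK053579, placed within the same stretch of chromosome 15, gave 0.15 ± 0.24 and 0.02 ± 0.20. On these cDNA probes KO2 and KO5 lay above every WT array, whereas on the 3 RefSeq probes KO2 lay below every WT array. None of the 5 Ghr probes passed the test, and among all 23266 probes tested 2.06% were called higher and 2.98% lower.

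Stat5a, the gene of a factor that pairs with STAT5B or with itself, had scaled signals of 1.76, 2.06, 1.64, 1.56 and 1.09 on KO1 to KO5, against 2.42, 2.10, 2.48, 1.87 and 2.67 on WT1 to WT5. KO2 lay within the WT range and the other 4 KO arrays below it. The difference was -0.53 ± 0.17, a 1.44-fold lower mean in KO, with a 95% interval of -0.90 to -0.16. It did not pass after adjustment (limma adjusted p = 0.0931), while the exact permutation p for this gene alone was 0.016. Without KO2 the limma adjusted p was 0.0492. It stayed at or over 0.05 in the other 9 single-array omissions, at most 0.175, and was 0.0934 without both KO2 and KO4. The difference within slide 2 was -0.56.

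Stat5b, the STAT5 gene that carries most of the hormone's effect in liver, had scaled signals of 12.0, 10.4, 17.3, 13.6 and 9.03 on KO1 to KO5, against 12.2, 11.2, 11.3, 12.2 and 11.5 on WT1 to WT5. The KO arrays fell on both sides of a narrow WT range. Their SD was 0.36 on the log2 scale, against 0.06 in WT, and 72.4% of genes had a smaller KO SD and 11.1% a smaller WT SD. The means differed by 0.06 ± 0.15 (95% interval -0.29 to 0.40, limma adjusted p = 0.851). The remaining Stat5b probes gave 0.20 ± 0.11 (A_51_P281938) and 0.03 ± 0.23 (the cDNA AK088966), with adjusted p of 0.300 and 0.949 over all probes.

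Socs2 encodes a SOCS protein that binds the activated growth hormone receptor and marks it for degradation, and in mice its loss gives overgrowth. Its probe for NM_007706 (mm7 chr10:94973417-94973476, minus strand) read 2.47, 3.16, 3.76, 0.985 and 5.75 on KO1 to KO5, against 0.773, 0.609, 0.839, 0.229 and 0.877 on WT1 to WT5. Every KO array lay above every WT array, but KO4, the lowest KO array, was close to the upper end of the WT values, and WT4 was far below the other WT arrays. Socs2 rose 4.61-fold in KO (2.21 ± 0.50 on the log2 scale, 95% interval of the fold 2.14 to 9.95), with limma adjusted p = 0.0324. The exact two-sided permutation p was 0.0079, the smallest that 5 against 5 arrays allow.

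The spread of Socs2 was wide in both genotypes. The SD of the log2 values was 0.95 in KO and 0.81 in WT, larger than that of 96.5% and 98.2% of genes. Leaving out any 1 array kept the difference between 1.86 and 2.58, but the call held without KO1 or KO4 only, and each of the other 8 omissions (KO2, KO3, KO5 or any WT array) raised the adjusted p to at most 0.0812. Within slide 2 the difference was 1.81 (adjusted p = 0.733), and it was the same with slide as a block (adjusted p = 0.447). Slide 2 sets 3 KO arrays against 1 WT array, so these tests have little power. A Socs2 probe for the cDNA AK033206, 24.3 kb away, was above background on 2 KO and 2 WT arrays and was not tested.

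Cish encodes CIS, which competes with STAT5 for the activated receptor and is a classical STAT5 target. It read 1.01, 16.5, 9.28, 0.354 and 9.29 on KO1 to KO5, against 1.86, 2.99, 0.637, 0.572 and 0.697 on WT1 to WT5. KO2, KO3 and KO5 lay above all WT arrays, KO4 below all of them, and KO1 among them. The highest KO array was 46.6-fold above the lowest, against 5.24-fold in WT. The SD of Cish was larger than that of 99.9% of genes in KO (2.40, log2) and of 99.3% in WT (1.07). The mean difference of 1.70 ± 1.05 had a 95% interval of -0.64 to 4.04 and did not pass (limma adjusted p = 0.358, exact permutation p = 0.19).

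Socs3, best known as the brake on IL-6 receptor signalling through STAT3, read 1.59, 8.61, 4.44, 1.35 and 2.98 on KO1 to KO5, against 1.97, 1.16, 1.89, 1.51 and 1.21 on WT1 to WT5. The same KO arrays as for Cish, KO2, KO3 and KO5, lay above all WT arrays. The difference of 0.99 ± 0.46 did not pass (95% interval -0.03 to 2.02, limma adjusted p = 0.223, exact permutation p = 0.10), and it was 1.71 within slide 2.

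Socs1, an inhibitor of JAK kinases induced by interferons, read 0.246, 0.764, 0.389, 0.305 and 0.457 on KO1 to KO5, against 0.296, 0.240, 0.259, 0.216 and 0.289 on WT1 to WT5. KO1 lay within the WT values and the other 4 KO arrays above them. The difference was 0.63 ± 0.26 (95% interval 0.04 to 1.22), with limma adjusted p = 0.186 and an exact permutation p of 0.048 for this gene alone.

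**Figure D2:**
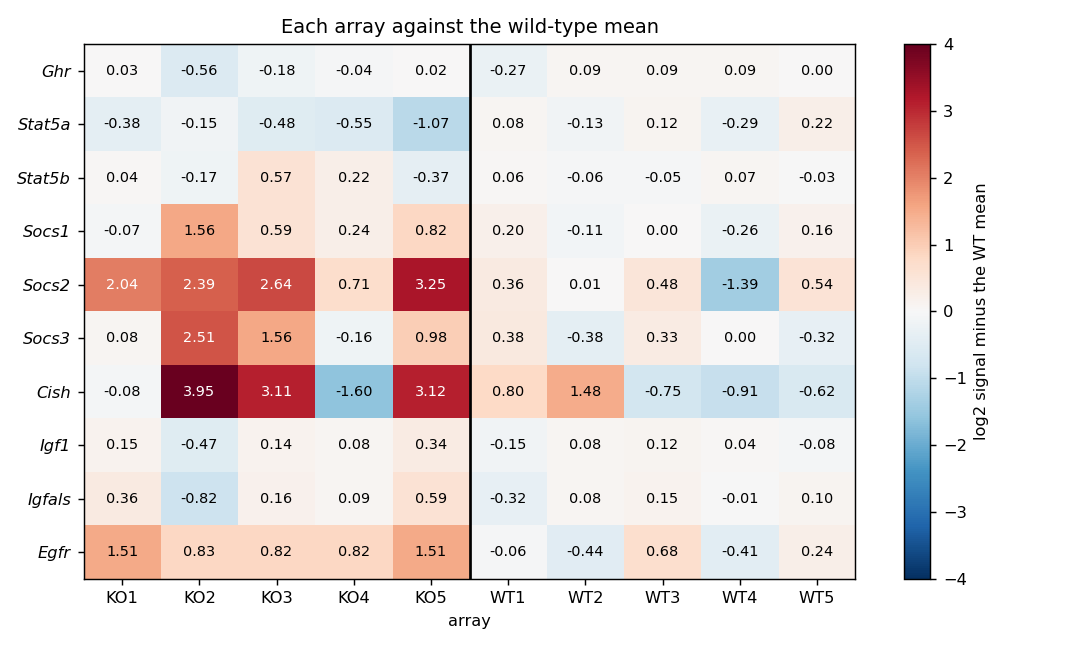
Log2 signal of each of the 10 genes (rows) on each array (columns, KO left of the line and WT right) minus the mean of the 5 WT arrays; red is above and blue below that mean. KO2 is the highest array for Socs1 (1.56), Socs3 (2.51) and Cish (3.95) and the lowest for Ghr (-0.56), Igf1 (-0.47) and Igfals (-0.82), and KO4 is the lowest for Cish (-1.60).

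Igf1, the main growth factor released by liver in response to growth hormone, read 74.5, 48.6, 73.9, 71.1 and 85.0 on KO1 to KO5, against 60.5, 70.8, 72.8, 68.9 and 63.6 on WT1 to WT5. KO2 lay below every WT array and KO1, KO3 and KO5 above them. The difference was 0.05 ± 0.14 (limma adjusted p = 0.865, exact permutation p = 0.78), and its 95% interval allowed a KO level of 0.835 to 1.28 times that of WT. A probe for the transcript NM_184052 gave 0.13 ± 0.18. Its sequence is shown because it reads coding sequence of the growth factor, on the plus strand of chromosome 10 in mm7.
Igf1 A_52_P536434, chr10:87471884-87471943: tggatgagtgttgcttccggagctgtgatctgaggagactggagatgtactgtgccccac

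A probe for the cDNA AK050118, 51.0 kb from the nearest of the other Igf1 probes, read 4.26 on KO3 and at most 0.754 on the other KO arrays, against 0.347 to 0.840 on the WT arrays. Its mean difference was 0.50 ± 0.60 and did not pass (limma adjusted p = 0.663 over all probes).

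Igfals encodes the acid-labile subunit, which holds IGF-1 and its binding protein in a long-lived complex in blood. It read 5.52, 2.43, 4.81, 4.59 and 6.48 on KO1 to KO5, against 3.44, 4.53, 4.78, 4.28 and 4.60 on WT1 to WT5. KO2 was again the lowest KO array, KO1 and KO5 lay above the WT arrays, and KO3 barely so. The means differed by 0.08 ± 0.23 (95% interval -0.44 to 0.60, limma adjusted p = 0.869), and within slide 2 the difference was -0.20. The probe lies on the plus strand of chromosome 17 in mm7 and is shown as the only Igfals sequence measured.
Igfals A_51_P277088, chr17:23064462-23064521: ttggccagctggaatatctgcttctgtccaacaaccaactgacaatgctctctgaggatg

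Egfr encodes the receptor of EGF and TGF-alpha, and in mouse liver its level is known to depend on growth hormone. The probe that stood for the gene (NM_207655, transcript variant 1) read 73.4, 45.9, 45.5, 45.4 and 73.4 on KO1 to KO5, against 24.7, 19.0, 41.3, 19.3 and 30.4 on WT1 to WT5. Every KO array lay above every WT array, with WT3 the closest. Egfr rose 2.14-fold in KO (1.10 ± 0.25 on the log2 scale, 95% interval of the fold 1.47 to 3.13), with limma adjusted p = 0.0315 and an exact permutation p = 0.0079. Leaving out 1 array kept the difference between 0.99 and 1.27, and the call was lost without WT1, WT2, WT4, WT5 or KO5 (highest adjusted p = 0.0842). Within slide 2 the difference was 0.82, with adjusted p = 0.999 and again 1 WT array, and with slide as a block the adjusted p was 0.631.

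The other Egfr probes also gave positive differences. Both probes for NM_007912 (transcript variant 2) separated the groups. A_51_P392242 read 20.0 to 32.4 on KO arrays and 7.69 to 15.2 on WT arrays (1.21 ± 0.19, limma adjusted p = 0.00951 over all probes). A_52_P56471 read 16.3 to 33.5 on KO arrays and 7.30 to 12.8 on WT arrays (1.12 ± 0.22, adjusted p = 0.0227). Its sequence is printed as the clearest coding piece of Egfr measured, on the plus strand of chromosome 11 in mm7.
Egfr A_52_P56471, chr11:16835551-16835610: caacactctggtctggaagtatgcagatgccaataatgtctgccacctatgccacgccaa

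The second probe for variant 1 (A_52_P674338) gave 1.27 ± 0.33 with adjusted p = 0.0529, and a probe for the cDNA AK033431 gave 0.84 ± 0.36 with adjusted p = 0.197. A probe for the cDNA AK049452, 128 kb from the nearest of the other Egfr probes, read 0.114, 0.397, 1.05, 0.253 and 1.13 on KO1 to KO5, against 0.0872, 0.0481, 0.130, 0.0607 and 0.0562 on WT1 to WT5. KO1 lay within the WT values and the other 4 KO arrays above them, and the difference was 2.57 ± 0.60 (adjusted p = 0.0396 over all probes). This dim probe was above background on 5 KO and 4 WT arrays, so the size of its difference is uncertain. Set within each array, the signal of the NM_007912 probes relative to the NM_207655 probes differed between KO and WT by -0.15 to 0.12 on the log2 scale over the 4 probe pairs, with exact permutation p of 0.60 to 0.91 (0.91 adjusted over the 4 pairs); these p-values do not show that the variants moved alike. The probes carry the accession of a variant but could not be placed in exons here, so they are not known to read that variant alone.

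**Figure D3:**
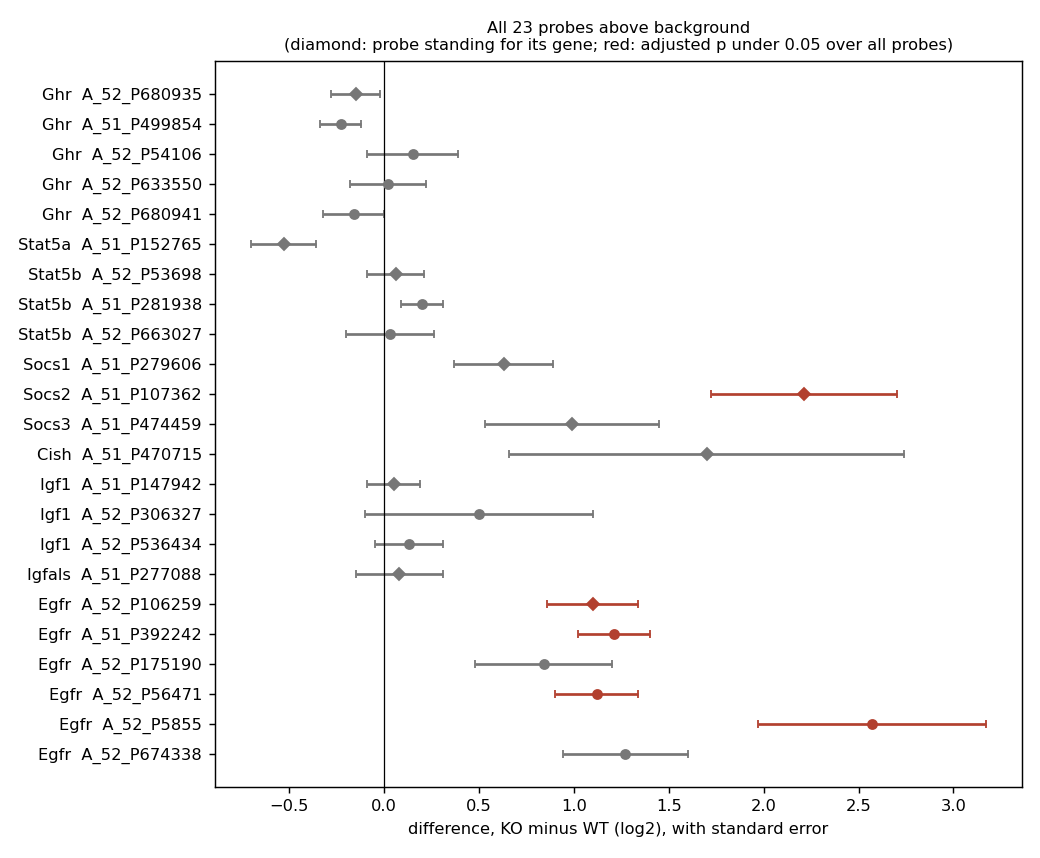
KO minus WT difference of each of the 23 probes above background (log2, with standard error, n = 5 each), grouped by gene; diamonds mark the probe that stood for its gene and red an adjusted p under 0.05 over all probes. All 6 Egfr probes lie right of 0 and 4 of them are red, the 5 Ghr probes lie between -0.23 and 0.15, and the Socs2 probe lies at 2.21.

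Some of the 10 genes varied together within the genotypes, in several pairs largely through a few arrays. After subtracting each genotype's mean, over 10 arrays and 45 pairs of genes, Pearson's r was 0.97 between Igf1 and Igfals (0.78 without KO2 and KO5, the arrays farthest from the median of the first gene), and 0.92 between Ghr and Igfals and 0.90 between Ghr and Igf1 (0.57 for both without KO2 and WT1). It was 0.85 between Socs1 and Socs3 and 0.73 between Socs1 and Cish (0.57 and 0.64 without KO1 and KO2), and 0.77 between Socs3 and Cish (0.49 without KO2 and KO4). Ghr ran against Socs1 (r = -0.79) and Socs3 (r = -0.78). Without KO2 and WT1 these last values were -0.45 and -0.50. Stat5b and Egfr had no r above 0.54 with any of the other genes over all 10 arrays. Without KO3 and KO5, however, Stat5b gave -0.75 with Cish, -0.71 with Socs3, -0.68 with Socs1 and 0.60 with Igf1. Not every pair weakened when the farthest arrays were left out. Stat5a and Igf1 had r = -0.72 (-0.74 without KO5 and WT4), and Socs1 and Socs2 0.49 (0.91 without KO1 and KO2). All these arrays share the same scaling, and KO2 alone lay at an end of 6 of the 10 genes.

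Genes outside the axis with the most similar genotype-centred profile, among 15740 compared over 10 arrays, were named for Ghr, Socs2, Igf1 and Egfr. For Ghr they were Cyp2j6, Dbp and Aard, each at r = 0.97 (0.93, 0.78 and 0.72 without KO2 and WT1). For Igf1 they were Slc25a21 at 0.99, Bmyc at 0.98 and Fam47e at 0.97 (0.95, 0.90 and 0.83 without KO2 and KO5). For Socs2 they were the transcripts AK090157 at 0.95, Nfasc at 0.93 and TC1426818 at 0.92 (0.63, 0.62 and 0.70 without KO4 and WT4). For Egfr they were Nsd2 at 0.91, AK049434 at 0.91 and AK086068 at 0.88 (0.79, 0.91 and 0.81 without KO1 and WT3). They were picked as the highest of 15740 values over 10 arrays, and such a choice by itself yields high r. A link with Ghr, Socs2, Igf1 or Egfr was not tested. None of these genes was called between the genotypes.

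Other genes of the pathway were read from lists. Of 29 tested genes that act beside the growth hormone receptor (JAK kinases, phosphatases, adaptors and other STATs), 0 were called higher or lower by limma, 6 had an unadjusted p under 0.05 (23.7% of all genes did), and the median difference was 0.07. Jak2, the kinase bound to the receptor, read 0.807, 1.03, 0.921, 0.889 and 0.777 on KO1 to KO5, against 0.922, 0.796, 0.862, 0.839 and 0.817 on WT1 to WT5 (0.06 ± 0.09, adjusted p = 0.732; named after its value was seen). The smallest p of that list belonged to Sh2b2, an adaptor of JAK kinases, at 0.39 ± 0.12 (adjusted p = 0.0950). Of 10 tested genes for the remaining SOCS proteins and their ubiquitin-ligase partners, 0 were called by limma, 2 had an unadjusted p under 0.05, and the median was -0.01. Eloc, which encodes elongin C, came closest at -0.21 ± 0.08 (adjusted p = 0.126).

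In the IGF system, 2 of 12 tested genes were higher and 0 lower (2.44% and 3.48% of all genes), with a median of 0.10. Igf2, a fetal growth factor gene that is low in adult rodent liver, read 0.105, 0.127, 0.140, 0.104 and 0.116 on KO1 to KO5, against 0.0538, 0.0866, 0.0763, 0.0637 and 0.0639 on WT1 to WT5. The groups did not overlap, and Igf2 rose by 0.79 ± 0.14 (limma adjusted p = 0.0136, at most 0.0380 when any 1 array was left out, 0.327 with slide as a block). Igf2 was above background on 5 KO and 5 WT arrays, but its WT mean was low (-3.88, log2). The lowest signals read as above background were -5.34 to -4.03 on the WT arrays. Igfbp7, which encodes an IGF-binding-protein-related secreted protein, rose by 0.36 ± 0.09 (adjusted p = 0.0480), and that call was lost without any 1 of the 10 arrays. Of 17 tested genes for EGFR relatives, ligands and regulators, 0 were higher and 1 lower, with a median of 0.06. The lower one was Btc, the ligand betacellulin, at -0.87 ± 0.22 (adjusted p = 0.0461), which lost its call without 8 of the 10 arrays taken singly, all but KO1 and KO3. Btc was above background on 2 KO and 5 WT arrays, so it was tested only because of its WT readings, and with probes above background on all arrays 0 genes of the list were called lower.

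Of 17 tested regulators that shape the hepatic response to the hormone, 1 was higher and 2 were lower (2.44% and 3.48% of all genes). Their median was -0.04. Foxa1, a pioneer factor of liver enhancers, rose by 1.10 ± 0.20 (adjusted p = 0.0157, at most 0.0462 with any 1 array left out, 0.231 with slide as a block). Tox, a female-biased nuclear factor gene, fell by 0.75 on the log2 scale (SE 0.17, adjusted p = 0.0304), a call that was lost without WT1, WT2, WT3, WT5, KO4 or KO5 (highest adjusted p = 0.0709).

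Of 26 tested genes known to be higher in female than in male mouse liver, 0 were higher and 5 lower in KO. Over all genes, 2.44% were called higher and 3.48% lower. Of the 26 differences 22 were negative, and the median was -0.76 against 0.01 over all genes. The list was chosen with earlier results of these data known. Some of the 26 are close relatives with like profiles, so they are not all separate readings. Cyp3a16, Cyp3a41a and Cyp3a44, named after their values were seen, read 4.9, 20.6 and 8.26 on KO2, the lowest KO array for each. The list's median on each array, relative to the WT mean, was -0.93 to -0.47 on KO arrays and -0.20 to 0.18 on WT arrays, without overlap. Among WT arrays, WT1 was the highest for this list (0.18) and the lowest for the male-biased list below (-0.18). Cyp2a4, a steroid hydroxylase gene, read 45.2 to 61.3 on KO arrays and 79.9 to 99.1 on WT arrays (-0.76 ± 0.11, adjusted p = 0.00548). Cyp2a5, its near-identical neighbour, whose probe may also bind Cyp2a4 transcripts, gave -0.64 ± 0.09 (adjusted p = 0.00575). Its probe is placed at mm7 chr7:23212221-23212279 and overlaps that of Cyp2a4 at chr7:23212199-23212258, so these calls are not separate readings. Hamp2, a hepcidin gene, read 0.133 to 2.05 on KO arrays and 4.61 to 14.1 on WT arrays (-4.12 ± 0.64, adjusted p = 0.00762). The remaining calls were Tox and Hao2, a peroxisomal hydroxyacid oxidase gene named after its value was seen (-3.02, adjusted p = 0.0252). Hao2 was above background on 1 KO and 5 WT arrays, so it was tested only because of its WT readings and the size of its difference is not a measured fold. The count of lower genes was 8 without KO2 and 3 without WT1, WT2, WT5, KO4 or KO5, and the call of Hao2 was lost without WT4 as well as without those 5 arrays. With slide as a block none of the 5 calls held, with adjusted p of 0.256 to 0.519.

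Of 28 tested genes known to be higher in male mouse liver, 1 was higher and 2 were lower (2.44% and 3.48% of all genes). Their median was 0.12. Fitm1, a lipid-droplet gene, read 0.758 to 1.39 on KO arrays and 1.66 to 2.45 on WT arrays (-1.18 ± 0.18, adjusted p = 0.00759). Nat8f5, an acetyltransferase-family gene, read 5.46 on KO1 and 0.269 to 0.923 on the other KO arrays, against 8.82 to 14.0 on WT arrays (-3.44 ± 0.64, adjusted p = 0.0177). Its probe lies on the chromosome of the targeted gene (mm7 chr6:85892437-85892496, with the Nr2c2 probes between 92187254 and 92245066). The part of that position in its difference was not tested. C8b, a complement gene, rose by 1.21 ± 0.26 (adjusted p = 0.0273). Omitting WT2 ended the Nat8f5 call (adjusted p = 0.0526), and the C8b call ended without WT1, WT2, WT5, KO4 or KO5. Without KO2, 4 genes of the list were higher, and with slide as a block none of the 3 calls held (adjusted p of 0.279 to 0.481).

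**Figure D4:**
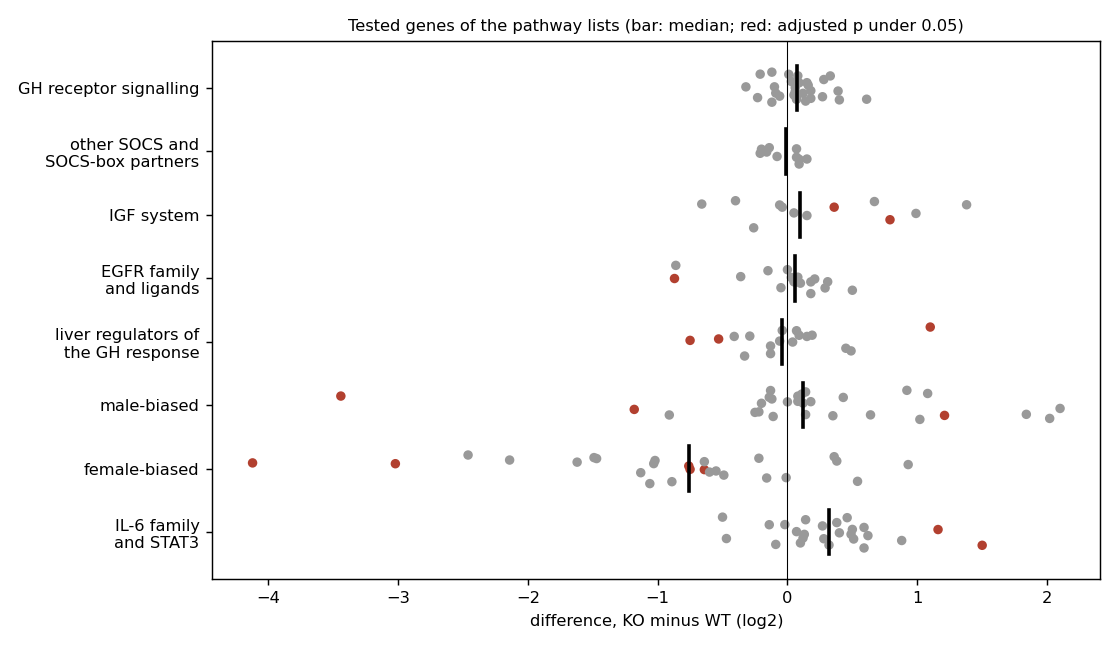
KO minus WT difference (log2) of every tested gene in 8 lists (points), with the list's median as a black bar and calls at adjusted p under 0.05 in red. The female-biased list has its median at -0.76 with 5 calls left of 0, and the other medians lie between -0.04 and 0.32.

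Cytokine signals also act on SOCS genes. Of 25 tested genes of IL-6-family and STAT3 signalling, 2 were higher and 0 lower (2.44% and 3.48% of all genes), with a median of 0.32. The list's median on KO2 was 0.92 above the WT mean, the highest of any array. Lifr, a receptor of that family, read 24.1 to 39.9 on KO arrays and 9.93 to 18.1 on WT arrays (1.16 ± 0.19, adjusted p = 0.0118, and 0.509 with slide as a block). Il6 itself was above background on 4 KO and 1 WT arrays, so it was tested only because of its KO readings and its WT mean rests mostly on spots not well above background. Its difference of 1.50 ± 0.37 (adjusted p = 0.0425) is therefore not a measured fold, and its call was lost without WT2, WT3, WT4, WT5, KO4 or KO5 (highest adjusted p = 0.108).

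Markers of the liver's cell types were read beside these values. Of 23 tested hepatocyte markers 0 were called by limma, 18 had a negative difference and 3 an unadjusted p under 0.05, and their summed scaled signal was 2550 to 3360 on KO arrays and 3060 to 3300 on WT arrays. Their median was 0.53 below the WT mean on KO2, the array that was lowest for Ghr, Igf1 and Igfals. Over all genes, 2.44% were called higher and 23.7% had an unadjusted p under 0.05. Of 16 endothelial markers 3 were higher (Dnase1l3, Flt4 and Fcgr2b), 15 had a positive difference and 11 an unadjusted p under 0.05, with a median of 0.41. Their sum was 60.7 to 96.9 on KO arrays and 41.4 to 57.8 on WT arrays. Of 17 macrophage markers 2 were higher (Cd163 and Fcgr3), with sums of 71.8 to 175 on KO and 80.8 to 160 on WT arrays, and of 15 stellate markers 1 (Bgn), with sums of 116 to 143 on KO and 103 to 129 on WT arrays. On KO2, where Socs1, Socs3 and Cish were highest, the medians of the B cell and of the T and NK cell markers were each 0.74 above the WT mean. On KO3 and KO5, where Cish was also high, they were 0.12 and -0.59 for B cells and 0.01 and 0.48 for T and NK cells. Only 4 and 8 of these markers were tested, and their sums on KO arrays were at most 1.9 and 1.71. The neutrophil median was 1.53 on KO2, but also 1.6 on KO5 and 1.63 on WT1. Each of the 6 endothelial, macrophage and stellate calls was lost when some single arrays were left out, WT2 and WT3 among them for every one, and none held with slide as a block (adjusted p of 0.0984 to 0.723). The part of these markers in the values of the 10 genes was not tested.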

How the data were processed

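Per the file headers, the authors' scanner files hold 1-colour spot intensities processed with Agilent Feature Extraction (version 9.5 per the submitters' processing notes, 9.5.1.1 in the headers), with probe positions in mm7. The deposited value table was identical to the scanner values. The processed intensity was divided by each array's 75th percentile over 41174 non-control probes and log2 was taken; outlier spots were left out and spots of a probe averaged. A probe was kept where 4 or more of the 5 arrays of either genotype read it well above background (23266 probes), and a gene was its kept probe with the highest mean (15809 genes). limma 3.58.1 in R 4.3.3 tested genotype alone, with Benjamini-Hochberg adjustment at 0.05 over all genes, or over all probes where stated. Single genes also had an exact two-sided permutation test over 252 splits. The number of arrays limits the precision. Updated symbols came from RefSeq by accession for 22951 probes, by symbol for 6659, by older symbol for 3109, and 8455 kept the file's name. The fit was tested on simulated data with the same SD in both genotypes and no slide effect, so unequal spread and slide were not covered.

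The 10 genes and the lists were chosen with earlier results of these data known. Other genes were named by rule: the called genes of each list with the 3 smallest p, or the smallest p where none was called, and the 3 closest profiles for Ghr, Socs2, Igf1 and Egfr. Replicate numbers did not pair the samples. A few results of these lists are not reported here.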

Additional observations from a re-analysis of the deposited data

Results flagged for a closer look

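Among 46 groups of 5 arrays examined (each probe above background in each genotype), 4 held an array far from its neighbours by Dixon's test, which chance does for about 1 group in 20. Socs2 was 0.229 on WT4, against 0.609 to 0.877 on the other WT arrays. Ghr was 15.4 on KO2 with the intron-crossing probe, against 23.0 to 26.9 on the other KO arrays. With the probe that stood for the gene, Ghr was 56.3 on WT1, against 68.1 to 72.6 on the other WT arrays. Igf1 was 38.5 on KO2 with the NM_184052 probe, against 65.3 to 78.9 on the other KO arrays. All are scaled signals.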

How the results depend on the processing

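Over 24 alternative settings the 10 genes gave 240 values, of which 212 kept their direction and side of the threshold, 21 kept the direction but were no longer called, 1 became called and 6 turned sign. With every probe kept, whatever its brightness, more genes were tested, Socs2 (2.21, adjusted p = 0.0869) and Egfr (1.10, adjusted p = 0.0881) lost their calls, and over all genes 80 were called higher and 167 lower. With slide as a block, which rests on slide 2, Socs2 was 1.81, Egfr 0.82 and Igfals -0.20, and 13 genes were higher and 22 lower. Within slide 2, which holds 1 WT array, assumed to vary like the KO arrays, the differences were 1.81, 0.82 and -0.20, with 2 genes higher and 0 lower. In these 3 settings 0 of the 10 genes were called higher. The replicate number is shared by name only. With it as a replicate block, Egfr (1.10) had adjusted p = 0.0792, 1 of the 10 genes was called higher, and 60 genes were higher and 106 lower. Without KO2 and KO4, chosen after seeing the data, Egfr was 1.28 (adjusted p = 0.0542), 1 of the 10 was called, and 210 genes were higher and 307 lower. With slide as a random block 644 genes were higher. Without scaling, the median over all genes was 0.12, and 314 genes were higher and 156 lower, against 385 and 550 with scaling. Leaving out 1 array at a time gave ranges of 1.86 to 2.58 for Socs2, 0.99 to 1.27 for Egfr, 1.14 to 2.52 for Cish, 0.62 to 1.28 for Socs3, 0.40 to 0.81 for Socs1, -0.62 to -0.39 for Stat5a, -0.07 to 0.17 for Stat5b, -0.22 to -0.04 for Ghr, -0.02 to 0.18 for Igf1 and -0.05 to 0.30 for Igfals. It called 0 to 2 of the 10 genes higher and 0 to 1 lower, and 113 to 536 genes higher and 184 to 655 lower overall. The causes were not tested.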
